A study of Mus musculus with 6 samples.

Results

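The Ikaros family comprises the zinc-finger transcription factors Ikaros (Ikzf1), Helios (Ikzf2), Aiolos (Ikzf3), Eos (Ikzf4) and Pegasus (Ikzf5). Its 5 genes were taken by name from the deposited table of 38924 genes. All 5 entered the 12502 genes tested. Naive CD4+ T cells from spleens of C57 BL/6 mice were cultured for 72 h with IL-6, TGFb1 and IL-23, together with antibodies to CD28 and CD3 (anti-CD28, anti-CD3), conditions under which Th17 cells form. The control cultures received the solvent DMSO and the treated cultures received CX-4945 (silmitasertib), an ATP-competitive inhibitor of protein kinase CK2. Its labelled dose is 2 mM, and the files offer no check of that unit. RNA was sequenced from 3 cultures per group, and no genetic change is named for either group. The table numbers the DMSO libraries 1, 3 and 5, and the CX-4945 libraries 2, 4 and 6.

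Family members bind DNA through N-terminal zinc fingers and pair with one another through C-terminal zinc fingers. They recruit chromatin complexes, chiefly NuRD, and repress or activate genes of lymphocyte development and effector function. Ikaros is a known substrate of CK2, whose phosphorylation lowers its DNA binding and stability, and protein phosphatase 1 (PP1) reverses it. In mouse helper T cells, Aiolos silences Il2 and favours Th17 differentiation, Helios and Eos are associated with regulatory T (Treg) cells, and Ikaros restrains the Th1 programme. The reads measure RNA and carry no measure of phosphorylation, protein level or DNA binding.

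With CX-4945, Ikzf1 fell 1.37-fold, Ikzf2 fell 1.92-fold and Ikzf5 rose 1.74-fold. Ikzf3 and Ikzf4 did not pass the test. Of the 5 members, 1 was called higher and 2 lower at a Benjamini-Hochberg adjusted p under 0.05, where 61.9% of all genes tested were called, 30.6% higher and 31.3% lower. A call for 3 of 5 members is therefore near the background of this comparison.

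Ikzf1 (chromosome 11, 11685003 to 11772926, plus strand, mm10) encodes Ikaros, the founding member and a regulator of lymphoid development. RefSeq lists a pair of start windows for it, each running from 250 bases before a start to 50 bases after it (build GRCm38.p6). They are shown because Ikzf1 was the most abundant member and fell, and because the family recognises sites with the core GGGAA. Capitals mark that core on either strand.
Ikzf1 upstream start, chr11:11685675-11685974, plus strand: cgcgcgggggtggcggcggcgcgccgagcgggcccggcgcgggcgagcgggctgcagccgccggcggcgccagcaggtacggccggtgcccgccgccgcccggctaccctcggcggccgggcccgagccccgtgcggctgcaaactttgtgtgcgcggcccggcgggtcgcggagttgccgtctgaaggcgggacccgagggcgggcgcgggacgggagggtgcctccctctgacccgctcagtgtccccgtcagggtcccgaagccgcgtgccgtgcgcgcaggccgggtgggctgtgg
Ikzf1 downstream start, chr11:11689927-11690226, plus strand: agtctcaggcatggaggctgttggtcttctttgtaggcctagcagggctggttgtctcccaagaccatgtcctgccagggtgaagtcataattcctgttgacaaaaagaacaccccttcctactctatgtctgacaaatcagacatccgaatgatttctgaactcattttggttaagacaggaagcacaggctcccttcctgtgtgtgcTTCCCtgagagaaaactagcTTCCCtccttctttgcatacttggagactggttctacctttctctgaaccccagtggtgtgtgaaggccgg
The upstream window has a G and C content of 81.3% and holds 0 copies of the core. The downstream window has a G and C content of 49% and holds 2, both on the opposite strand. The core occurs in 62.7% of the 32851 RefSeq start windows of this length, so its presence is common, and a match is a description of the letters only. The counts do not say which start was used.

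Ikzf1 stood at 483, 461 and 505 CPM in DMSO libraries 1, 3 and 5, where CPM are uniquely placed exon reads per 1000000 after scaling by the trimmed mean of M values (TMM). The treated libraries 2, 4 and 6 had 357, 348 and 350.1 CPM. Every treated library lay below every control. The groups were separated in this way, downward, for 34.8% of the genes tested, upward for 35% and in either direction for 69.7%. The mean Ikzf1 level was 483 ± 21.8 CPM in controls and 352 ± 4.82 CPM after treatment (SD, n = 3). The log2 fold change was −0.46 with an SE of 0.05 (adjusted p = 0.000175, edgeR). The 95% interval of the ratio of CX-4945 to DMSO was 0.67 to 0.791. Behind these levels were 11053 to 11909 reads per control library and 7880 to 9352 per treated library. The table overlaps Ikzf1 with a pair of predicted genes, Gm11999 and Gm12000, that held 0 to 3 reads per library.

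Ikzf2 (chromosome 1, 69531214 to 69685960, minus strand) encodes Helios, which is carried by many Treg cells and helps to keep them stable. Its controls had 13.6, 11.0 and 16.7 CPM, and its treated libraries had 6.77, 7.20 and 7.49 CPM. The groups did not overlap, and the controls spread more widely (coefficient of variation 20.5%) than the treated libraries (5.02%). The log2 fold change was −0.94 with an SE of 0.15 (adjusted p = 0.000967, edgeR), a ratio of 0.408 to 0.663 at 95% confidence. Ikzf2 held 264 to 393 reads per control library and 163 to 200 per treated library, far fewer than Ikzf1.

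Ikzf3 (chromosome 11, 98464902 to 98546031, minus strand) encodes Aiolos, the member tied most directly to Th17 cells. Its levels were 170.0, 180.5 and 157 CPM in controls and 178, 189.6 and 148 CPM under the inhibitor. The groups overlapped, with treated library 4 the highest and treated library 6 the lowest of the 6. Its log2 fold change was 0.02 with an SE of 0.09 (adjusted p = 0.856, edgeR), and the 95% interval of the ratio ran from 0.874 to 1.18. A change within that range, in either direction, remains compatible with these counts.

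Ikzf4 (chromosome 10, 128630843 to 128645991, minus strand) encodes Eos, a corepressor partner of Foxp3. It stood at 101, 104 and 109 CPM in controls and at 108, 109 and 114 CPM under the inhibitor. The groups overlapped at control library 5, which lay above treated library 2. The log2 fold change was 0.08 with an SE of 0.05 (adjusted p = 0.199, edgeR), and the ratio was 0.975 to 1.15 at 95% confidence. The strand setting of the counting is not known, and the predicted gene Gm26876, which overlaps the Ikzf4 start on the opposite strand, held 17 to 37 reads per library. Against the 2407 to 3055 reads of Ikzf4 per library, that count is low.

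**Figure D1:**
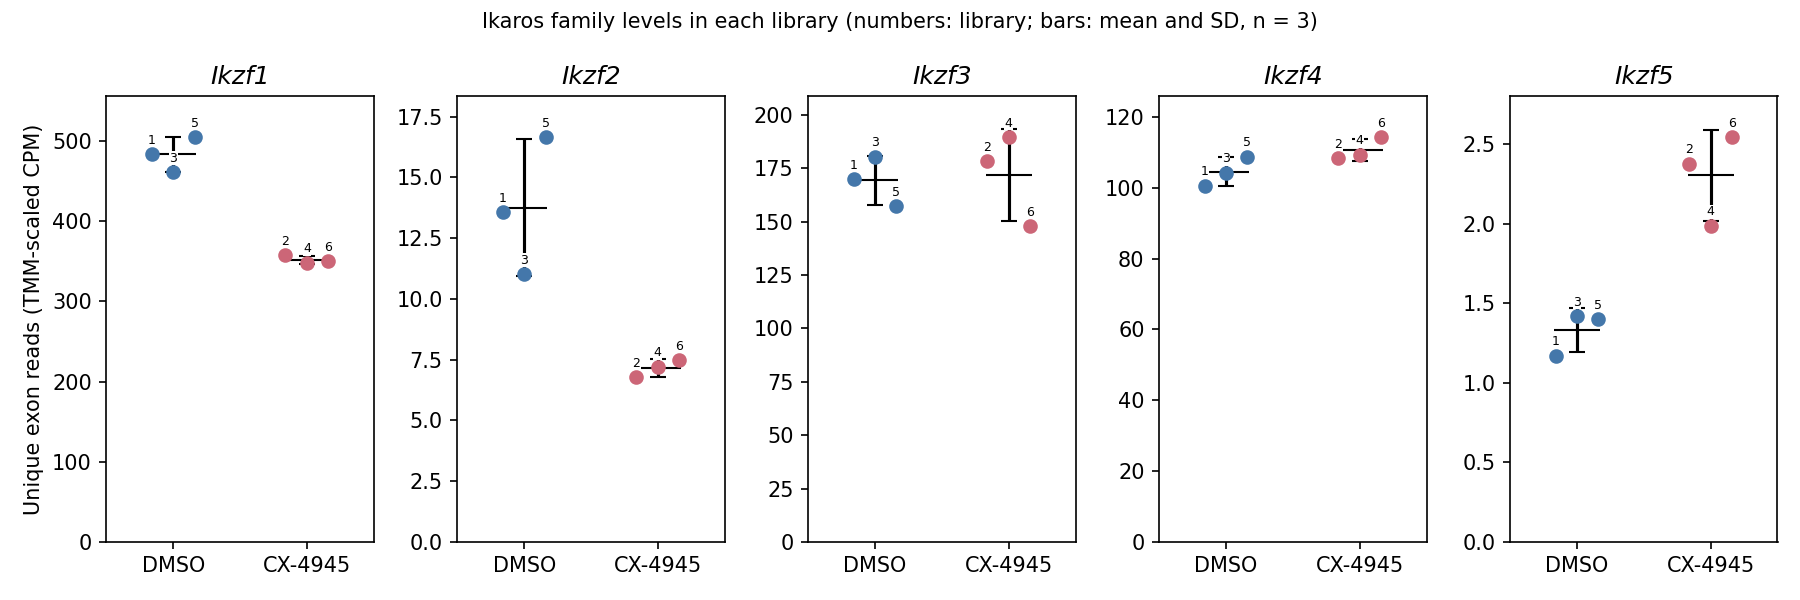
Unique exon reads of each family gene in TMM-scaled CPM (vertical axes start at 0 and differ between panels) for DMSO (blue) and CX-4945 (red), 1 point per library with its number; horizontal bars are means and vertical bars SD (n = 3). Ikzf1 and Ikzf2 are lower and Ikzf5 is higher in every treated library, while the groups of Ikzf3 and Ikzf4 overlap.

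Ikzf5 (chromosome 7, 131388652 to 131410521, minus strand) encodes Pegasus, the most divergent member, which in humans is tied to platelet formation. Its start window is shown because the gene rose and because it lies head to head with Acadsb, an acyl-CoA dehydrogenase gene on the plus strand (131410601 to 131446211). Only 79 bases separate the annotated ends, so the window runs into Acadsb. Capitals again mark the GGGAA core.
Ikzf5 start, chr7:131410429-131410728, minus strand: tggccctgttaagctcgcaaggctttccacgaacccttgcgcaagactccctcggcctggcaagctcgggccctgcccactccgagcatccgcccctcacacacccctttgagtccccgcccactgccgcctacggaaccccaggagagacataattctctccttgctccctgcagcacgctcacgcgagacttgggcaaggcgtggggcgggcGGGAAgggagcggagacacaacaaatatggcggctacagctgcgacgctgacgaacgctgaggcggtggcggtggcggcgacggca
The window holds 1 copy of the core, on the strand of Ikzf5. Ikzf5 had 28, 34 and 33 exon reads in the DMSO libraries and 59, 45 and 68 in the CX-4945 libraries. These equal 1.17, 1.42 and 1.40 CPM in controls and 2.38, 1.99 and 2.55 CPM under the inhibitor. Every treated library lay above every control. The log2 fold change was 0.80 with an SE of 0.19 (adjusted p = 0.00605, edgeR), a ratio of 1.29 to 2.33 at 95% confidence.

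Acadsb, the neighbour in this head-to-head pair, moved the other way. Its mean was 5.12 ± 0.46 CPM in controls and 3.60 ± 0.68 CPM under the inhibitor (SD, n = 3), with a log2 fold change of −0.51 and an SE of 0.17 (adjusted p = 0.0287, edgeR). It was chosen as a neighbour after its values were seen. Pstk, the other neighbour within 5 kb of Ikzf5, had a log2 fold change of −0.25 (adjusted p = 0.298, edgeR). Ikzf5 and Acadsb lie inside the span that the table gives for Fgfr2, a growth factor receptor gene on the minus strand (130162451 to 133123350). Fgfr2 itself had 7 exon reads over the 6 libraries. The junction and intron columns of the table, which give no value here, place every unique exon read of Ikzf5 at a splice junction and none of its reads in introns. The 267 reads of Ikzf5 are therefore a count of spliced reads, and its level per length of exon is not ranked among the members. The family sum and shares include it under that restriction. The effect of that restriction on the difference between groups was not tested, nor was whether Acadsb carries it.

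**Figure D2:**
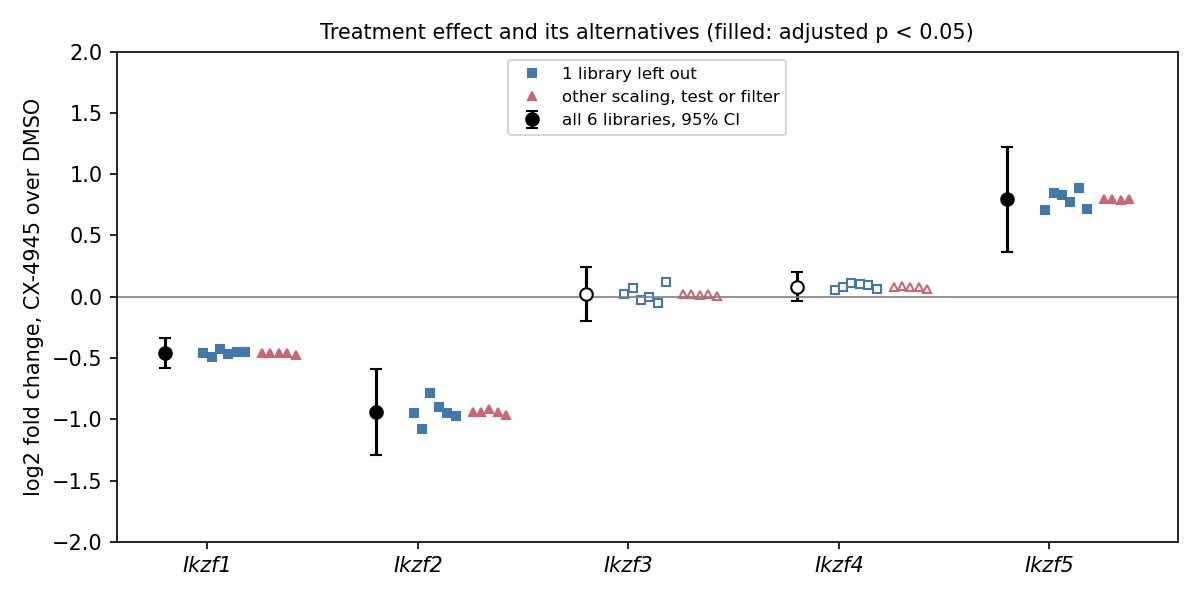
Log2 fold change of CX-4945 over DMSO (vertical axis) for each family gene from all 6 libraries with its 95% confidence interval (circles), with 1 library left out (squares) and under other scalings, tests or filters (triangles); filled symbols have an adjusted p under 0.05. Ikzf1 and Ikzf2 stay below 0 and Ikzf5 above 0 with filled symbols, Ikzf3 lies on both sides of 0, and Ikzf4 lies between 0.05 and 0.11 with open symbols.

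The members covered a wide range of levels. Per kilobase of exon, DMSO libraries had 83.6 ± 3.78 CPM for Ikzf1, 19.3 ± 1.32 for Ikzf3, 17.4 ± 0.69 for Ikzf4 and 1.46 ± 0.30 for Ikzf2 (SD, n = 3). On this scale Ikzf1 lay at the 94.6th percentile of tested genes and Ikzf2 at the 20.9th. The order under the inhibitor was the same, with 60.9 ± 0.83 CPM per kilobase for Ikzf1, 19.6 ± 2.47 for Ikzf3, 18.5 ± 0.54 for Ikzf4 and 0.76 ± 0.038 for Ikzf2 (SD, n = 3). The libraries of Ikzf3 and Ikzf4 overlapped in both groups, so these neighbours were not separated. Ikzf5 was not placed in this order because its count is restricted to spliced reads.

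The family total was lower in every treated library, and Ikzf1 made up less of it. Summed over the 5 genes, the level per kilobase was 119 to 126 CPM in controls and 97.9 to 101.5 CPM under the inhibitor. Ikzf1 took 68.5 ± 1.38% of the sum in controls and 60.8 ± 1.23% under the inhibitor (SD, n = 3; exact permutation test, two-sided, p = 0.1, the smallest that 3 against 3 libraries allow). Eos took 14.3 ± 0.41% and 18.4 ± 0.92% (SD, n = 3; exact permutation p = 0.1), and its libraries did not overlap. Shares are parts of the same sum, so a lower Ikzf1 level raises the shares of members that stay level. The Ikzf4 level itself was 17.4 and 18.5 CPM per kilobase and did not pass the test (adjusted p = 0.199, edgeR). Aiolos took 15.9 ± 1.49% and 19.6 ± 2.10%, where control library 3 at 17.3% lay just above treated library 6 at 17.2% (SD, n = 3; exact permutation p = 0.2). Helios went from 1.19 ± 0.21% to 0.759 ± 0.052%. The libraries of Helios did not overlap either (exact permutation p = 0.1). Ikzf5 is part of the sum, with its spliced reads alone.

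**Figure D3:**
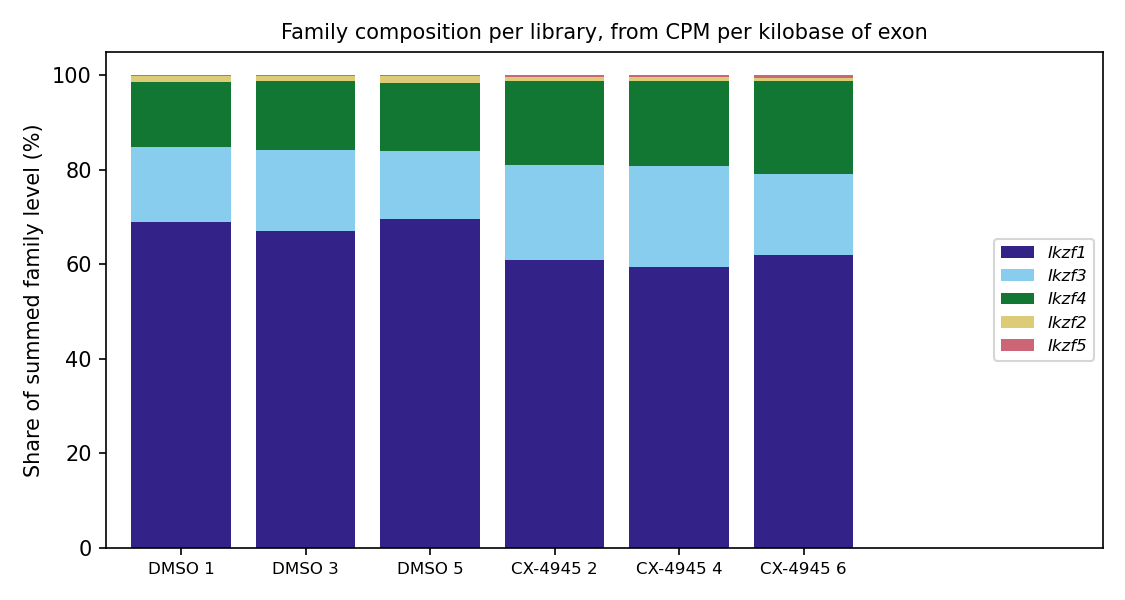
Share of each family gene (percent, stacked to 100) in the summed level per kilobase of exon in each of the 6 libraries. Ikzf1 holds 66.9 to 69.6% of the DMSO bars and 59.5 to 61.9% of the CX-4945 bars; the thin segment of Ikzf5 rests on its spliced reads alone.

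In the authors' deposited table, mean RPKM (exon reads scaled by exon length and library size) was 54.8 in control and 42.8 in treatment for Ikzf1, and 0.954 and 0.533 for Ikzf2. The authors' deposited table gives Ikzf3 12.7 and 13.8 RPKM, Ikzf4 11.4 and 13.0, and Ikzf5 0.25 and 0.493. Whether the Ikzf5 values carry its restriction to spliced reads was not tested. By the corrected p-values of the authors' deposited table, 0 of the 5 genes lay under 0.05, with the lowest at 0.103 for Ikzf5 and 0.146 for Ikzf1, while 3 of the 5 lay under it before correction. That test called 48 of 14649 genes in all.

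Genes for the enzymes that act on Ikaros moved by at most 1.32-fold. Of the CK2 subunit genes and the PP1 catalytic subunit genes, 2 of 6 rose and 1 fell (list median 0.05 on the log2 scale, against −0.0029 over all genes tested). Regulatory subunits of PP1 were not listed. Those 3 calls among 6 genes compare with 61.9% called over all genes tested. The CK2 catalytic subunit genes Csnk2a1 and Csnk2a2 had log2 fold changes of 0.07 and −0.03 (adjusted p = 0.455 and 0.705, edgeR). Csnk2b, the regulatory subunit, was called at 0.14 (adjusted p = 0.0345, edgeR). Without the filter on low counts that p was 0.0667, and it rose to between 0.061 and 0.104 when any library but DMSO 1 was left out. Ppp1cc, a PP1 catalytic subunit, fell 1.32-fold, 67.4 against 51.0 CPM (adjusted p = 0.00282, edgeR). Ppp1ca, another PP1 catalytic subunit, rose 1.14-fold (adjusted p = 0.0232, edgeR). Leaving out DMSO 1, CX-4945 2 or CX-4945 4 put that p at 0.0637, 0.079 and 0.0718.

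Chromatin partners of the family were mostly higher. In the NuRD complex, the remodelling and deacetylase complex that Ikaros recruits, 9 of 13 genes rose and 3 fell (list median 0.32 on the log2 scale), where 30.6% of all genes tested rose and 31.3% fell. Chd3, a NuRD remodelling ATPase, rose 2.21-fold, 315 against 696 CPM (adjusted p = 3.94e-05, edgeR), and the histone-binding subunit gene Rbbp7 rose 1.64-fold. The other ATPase gene, Chd4, had 1112 and 1070 CPM (adjusted p = 0.383, edgeR; named after its value was seen). Mta3, a NuRD scaffold, fell 1.42-fold, and Mbd2, a methyl-CpG binding subunit, fell 1.29-fold. In the SWI/SNF remodelling complex 9 of 13 genes rose and 1 fell (list median 0.31), against the same background. The ATPase gene Smarca4 rose 1.37-fold, and the subunit genes Actl6a, Smarce1 and Smarcc1 rose 1.55-fold, 1.47-fold and 1.43-fold. The other ATPase gene, Smarca2, was the 1 that fell (1.41-fold, adjusted p = 0.00176, edgeR). It was named after its value was seen.

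Of 5 CtBP and Sin3 corepressor genes 4 rose and 1 fell (list median 0.31), where 30.6% of all genes tested rose and 31.3% fell. Ctbp1, the corepressor that works with Eos in Treg cells, rose 1.20-fold, Rbbp8 (CtIP) rose 1.77-fold and Sin3a rose 1.24-fold. Ctbp2, 1 of the 4 that rose, was 4.31-fold higher from few reads, 3 to 10 per DMSO library and 22 to 35 per CX-4945 library. At that DMSO level it passed the filter on low counts only through the CX-4945 libraries, so only a rise could be called. Like Ikzf5, Ctbp2 overlaps the Fgfr2 span. In the cereblon ubiquitin ligase, which in human cells degrades Ikaros and Aiolos when thalidomide analogues are bound, 2 of 5 genes rose and 2 fell (list median 0.08), against the same background. Crbn, its substrate receptor, fell 1.58-fold, 70.8 against 44.7 CPM (adjusted p = 0.00059, edgeR). Rbx1, its RING subunit, rose 1.21-fold. The scaffold gene Cul4a fell 1.14-fold, and its adjusted p was 0.0577 once CX-4945 2 was left out (edgeR). The adaptor gene Ddb1 rose 1.11-fold, and with any library but DMSO 3 left out its adjusted p lay between 0.0502 and 0.125 (edgeR).

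**Figure D4:**
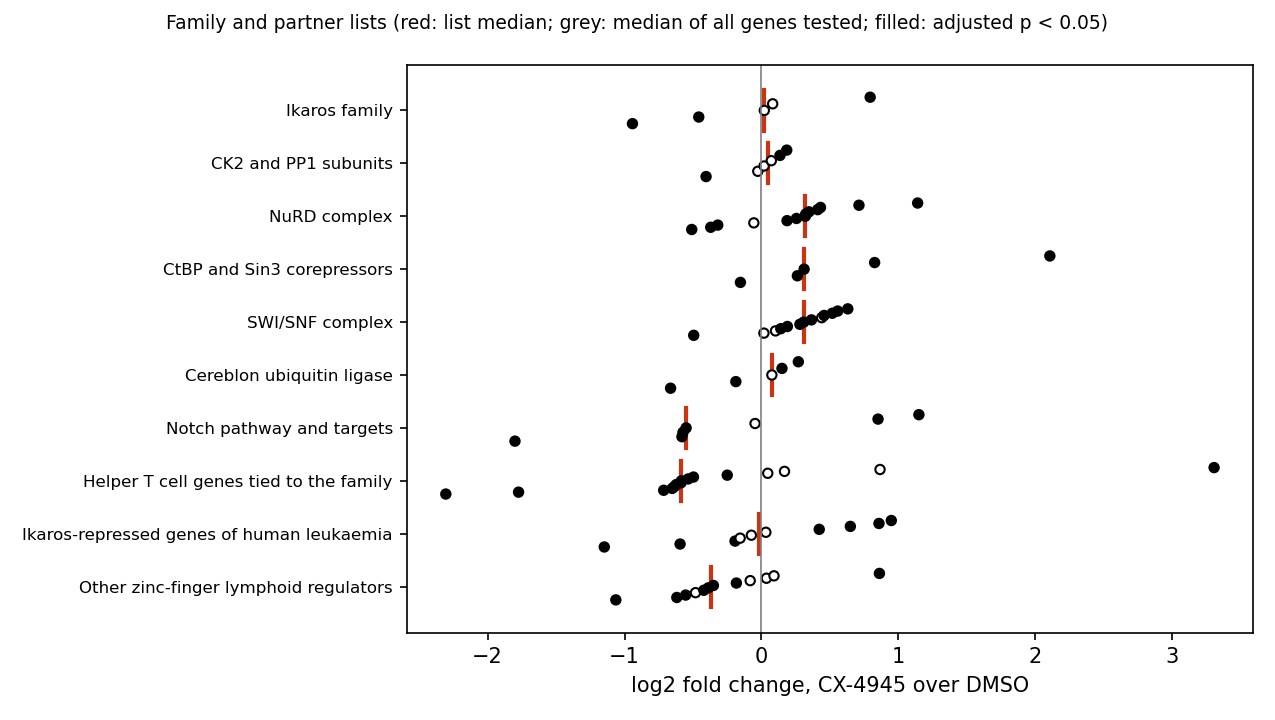
Log2 fold change (horizontal axis) of the tested genes of the family and of 9 lists of partners and related genes (rows), with the list median in red and the median of all genes tested in grey; filled points passed an adjusted p of 0.05. NuRD, SWI/SNF and the corepressors have medians of 0.31 to 0.32, and the helper T cell list has a median of −0.58.

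Most helper T cell genes tied to family members were lower under the inhibitor. Of 15 helper T cell genes tied to the family 11 fell and 1 rose (list median −0.58), where 31.3% of all genes tested fell and 30.6% rose. Il7r, the IL-7 receptor gene, fell 3.42-fold, and Il17a, the gene of the signature Th17 cytokine, fell 4.94-fold. Foxp3, partner of Eos, was the 1 that rose (9.91-fold), with 45 to 102 reads per DMSO library and 621 to 693 per CX-4945 library. Its locus lies inside the span of Ppp1r3f, and the same columns place every unique exon read of Foxp3 at a splice junction, so its counts are of spliced reads as well. Il2, which Aiolos and Helios silence, averaged 2.39 ± 1.32 CPM in controls and 4.34 ± 1.27 CPM under the inhibitor (SD, n = 3; adjusted p = 0.0886, edgeR). Its log2 fold change of 0.87 became 1.28 without DMSO 3 (adjusted p = 0.019, edgeR) and 0.50 without DMSO 5 (adjusted p = 0.15, edgeR).

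Ikaros restrains Notch target genes during thymocyte development. Of 7 tested genes of the Notch list 2 rose and 4 fell (list median −0.55), where 30.6% of all genes tested rose and 31.3% fell. Notch2, a receptor, rose 1.81-fold and the target Nrarp rose 2.22-fold. Rbpj, the DNA-binding partner of Notch, fell from 343 to 229 CPM and the coactivator gene Maml1 fell 1.49-fold. Another target, Dtx1, fell 1.46-fold (adjusted p = 0.0324, edgeR). The receptor gene Notch3 fell from 4.02 ± 3.12 to 1.13 ± 0.54 CPM (SD, n = 3, adjusted p = 0.0244, edgeR). Dtx1 and Notch3 were named after their values were seen. Hes1 was too low to be tested, and Ptcra had 0 reads. In human leukaemia cells Ikaros represses a set of cell cycle and phosphoinositide genes. Of the 10 mouse counterparts listed, 4 rose and 3 fell (list median −0.02), so the share called was near the 61.9% of all genes tested. The cell cycle genes Cdk1, Anln and Cdc7 rose 1.93-fold, 1.81-fold and 1.57-fold. Of the other cell cycle genes listed, named after their values were seen, Cdk2 rose 1.34-fold and Cdk6 fell 1.51-fold. Kdm5b, a histone demethylase gene, fell 2.22-fold. Of the phosphoinositide genes listed, also named after their values were seen, Inpp5d fell 1.14-fold (adjusted p = 0.00675, edgeR). Pik3cd and Pikfyve did not pass (adjusted p = 0.305 and 0.191, edgeR).

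Other zinc-finger regulators of lymphocytes gave a comparison for the family. Of 12 such genes 1 rose and 7 fell (list median −0.37), where 30.6% of all genes tested rose and 31.3% fell. Klf2, a factor of resting T cells, rose 1.82-fold, while Zeb2, Gfi1 and Zeb1 fell 2.09-fold, 1.53-fold and 1.47-fold. Bcl11b, a T cell identity factor that did not pass, had 275 and 293 CPM (adjusted p = 0.114, edgeR; named after its value was seen).

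The genes whose levels followed each member most closely were found by Pearson r of log2 CPM over the 6 libraries, which fall into the same 2 groups, so that a gene that differs between groups can reach a high r by that difference. Nearest to Ikzf1 were Bphl, Sfmbt2 and Dysf (r = 0.999 to 1.00), and nearest to Ikzf2 were Adssl1, Dars and Ptpn2 (r = 0.999). Ikzf5 lay nearest to Slc7a5, Ep400 and Pnrc2 (r = 0.997 to 0.998). For the members with overlapping groups, the nearest to Ikzf3 were Mtif2, Sytl2 and Tlr1 (r = 0.983 to 0.989). Those nearest to Ikzf4 were Atp1b2, Ptk7 and Cdyl (r = 0.98 to 0.982). Of these, Atp1b2 and Ptk7 were low, with means of 0.449 and 0.562 CPM in DMSO, while Cdyl had 34.1 CPM. For every member, these are the highest values of a search over many genes with only 6 libraries. Such values can arise by chance, and whether they exceed chance was not tested, so no shared regulation is read from them.

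Most markers of CD4 T cells were lower under the inhibitor. Of 9 such markers 7 fell, where 31.3% of all genes tested fell, and their summed level was 4898 to 5104 CPM in controls and 3465 to 3542 CPM under the inhibitor (list median −0.40). The other markers, the signalling genes Lck and Lat, had log2 fold changes of −0.099 and 0.012 (adjusted p = 0.137 and 0.866, edgeR). In bulk RNA, fewer cells of a type and less RNA per cell cannot be told apart, and the part of these markers in the family results was not tested. B cells, which also carry Ikaros and Aiolos, were represented by a marker sum of 12.6 to 21.6 CPM in controls and 13.9 to 14.9 CPM under the inhibitor. In the same order, the sums were 19.9 to 28.0 and 14.2 to 23.1 CPM for CD8 T cells, 18.2 to 24.0 and 11.0 to 12.3 CPM for dendritic cells, and 12.9 to 19.6 and 18.2 to 33.1 CPM for macrophages. For NK cells they were 4.71 to 4.97 and 5.83 to 7.30 CPM, for gamma-delta T cells 3.59 to 4.20 and 2.70 to 3.33 CPM, and for neutrophils at most 0.669 CPM in any library. Among tested markers, 0 of 6 for B cells were called in either direction. For CD8 T cells 1 of 2, for dendritic cells 2 of 5 and for gamma-delta T cells 1 of 2 fell. For NK cells 2 of 2 rose, and of 5 for macrophages 1 rose and 1 fell. Over all genes tested, 30.6% rose and 31.3% fell. The NK marker Eomes averaged 0.239 CPM in controls and 0.888 CPM under the inhibitor. At that control level it entered the test only through the treated libraries, so only a rise could be called. The NK markers Ncr1, Klrb1c and Klra8 were too low to be tested. The dendritic cell marker Siglech had 0 reads.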

How the data were processed

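The authors deposited 1 table for the 6 RNA-seq libraries. Unique exon reads are whole-number counts per gene, not normalized, per the file headers. The group means are the authors' RPKM, exon reads scaled by exon length and library size, per the file headers. RNA was isolated with Trizol, per the labels' protocols, and the submitters' processing notes name the build mm10. Not given in the sources used here: aligner, annotation release, strand setting, and options for counting.

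Columns name a group but no single sample of the labels, so no pairing was used, and 1 kind of reads was analysed. The 84 other value columns, counted over all 6 libraries, such as junction and intron reads, give no value here. Whether the cultures derive from separate mice is not labelled. The p-values therefore reflect the spread among these cultures, which may be technical. Unique exon reads summed to 22178614 to 26148189 per library. The 3 reads that an observed count of 0 permits come to 0.112 to 0.133 CPM, which covers counting error only.

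Genes were kept by filterByExpr (minimum count 10, total 15), scaled by TMM, and tested with the edgeR 4.0.16 quasi-likelihood F test, two-sided, with Benjamini-Hochberg adjustment over all genes tested and a threshold of 0.05. SE is the log2 fold change over the square root of F. DESeq2 1.42.0 and limma-voom (limma 3.58.1) were alternatives, as were other size factors, other filters and leaving out single libraries. R 4.3.3, Python 3.11.15 and matplotlib 3.10.9 were used. The fit was also run on simulated data, with an outcome that is not reported here. Gene starts, counted from 0 by the table, were raised by 1.

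The members, gene lists, tests and alternatives were chosen with earlier results of these data known. Named genes were the 5 members, the CK2 subunits, Foxp3, Il2 and Il17a, up to 4 called genes per list by smallest adjusted p, and the 3 genes most like each member by r of log2 CPM (pseudocount 0.5 CPM); 1 gene that this rule names is not reported here. RefSeq start windows matched 2 of the 5 members.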

Additional observations from a re-analysis of the deposited data

How the results depend on the processing

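No paired analysis was possible because the columns carry no replicate numbers of the labels. The columns match a group but no single sample, so 1 kind of reads was kept, the unique exon reads; fits on shared, junction and intron reads were made and set aside. Ikzf1, Ikzf2 and Ikzf5 kept their direction and their call under each alternative that tested them; Ikzf5 could not be tested at 5 CPM in 3 libraries, which left 2 members called. Leaving out single libraries moved the log2 fold change of Ikzf1 from −0.49 to −0.43, of Ikzf2 from −1.08 to −0.78, of Ikzf4 from 0.05 to 0.11 and of Ikzf5 from 0.71 to 0.89. Ikzf3 changed sign when single libraries were left out (−0.053 to 0.12), never passing (edgeR adjusted p 0.195 to 0.988); the cause was not tested. Genes called numbered 6319 to 7993 and called list genes 54 to 68 (67 with all libraries). Among named genes that did not pass, the sign turned for Csnk2a2 (−0.057 to 0.0050), Mtif2 (−0.024 to 0.042, and −0.013 at 5 CPM), Sytl2 (−0.058 to 0.31) and Tlr1 (−0.0898 to 0.074). Of 579 checks of named genes other than the members 547 gave the same call and direction. Ikzf5 rests on 28 to 68 reads per library.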
